A study of Homo sapiens with 6 samples.

Results

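The ERBB receptors and the EGF-family ligands that bind them were followed in MKN28 cells with and without LTBP1 knockdown. The 10 genes chosen by name were the receptors EGFR, ERBB2, ERBB3 and ERBB4 and the ligands AREG, EREG, TGFA, HBEGF, BTC and EPGN. Each of them has 1 row among the 19960 genes of the deposited table. MKN28 is an established human gastric adenocarcinoma line, which cell line registers list as misidentified and derived from another gastric carcinoma line. The tested cells stably expressed a plasmid with a short hairpin RNA against LTBP1 (shLTBP1), and the controls stably expressed the control plasmid labelled shSCR, with 3 libraries of total RNA in each group. Both groups therefore carry a plasmid. LTBP1 is a latent TGF-beta binding protein of the extracellular matrix. The comparison shows which RNA levels differ between the stable cells depleted of LTBP1 and the stable control cells. The labels do not say whether a stable line was a clone or a pool, nor how many hairpins against LTBP1 were used. Depletion of LTBP1 therefore cannot be told apart from other differences between the stable lines. Nothing in them ties the 3 libraries to separate cultures either, so every p-value below reflects library-to-library spread that may be purely technical.

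EGF-family ligands are made as transmembrane precursors, which membrane proteases of the ADAM family cut to release the soluble growth factor. A ligand brings receptors of the ERBB family together in pairs, and the pair phosphorylates its own tails, which recruit adaptors that switch on RAS to ERK and PI3K to AKT signalling. EGFR binds AREG, TGFA and EPGN. HBEGF, BTC and EREG bind both EGFR and ERBB4. ERBB2 has no known soluble ligand and acts as a partner, whereas ERBB3 binds neuregulins and signals mainly through its partners because its own kinase is weak. EGFR and ERBB2 are studied in gastric cancer as growth-promoting receptors and drug targets, and AREG, EREG and HBEGF are known to be induced by ERK signalling in many epithelial cells.

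The values are deposited read counts, scaled by the authors with DESeq2, with library totals of 30479879 to 30941103. LTBP1 was at 59.0, 66.8 and 49.0 in the shLTBP1 libraries, against 977, 964 and 1011 in the shSCR libraries. In the shLTBP1 cells 5.92% of the control mean was left (exact two-sided permutation p = 0.1, the smallest that 3 against 3 allows). LTBP1 itself lies on chromosome 2, where most tested genes were lower, as given below. Its log2 fold change was -4.07, and -3.48 with its chromosomal neighbours subtracted. All 6 epithelial markers looked up (EPCAM, CDH1, KRT8, KRT18, KRT19 and CLDN4) were expressed, and their summed level, mostly that of KRT8 and KRT18, was 287700 to 311500 in shLTBP1 and 324200 to 344700 in shSCR. EPCAM, which lies on chromosome 2, was at 9981 in shLTBP1 and 21680 in shSCR (log2 fold change -1.12), CDH1 and KRT18 fell by 0.34 and 0.25 on the log2 scale, and KRT19 and CLDN4 rose by 0.22 and 0.27. Of 10 gastric and intestinal markers, MUC1, CDX2 and GATA6 reached a mean of 10, while the gastric markers CLDN18, TFF2 and MUC6 were listed at 0 in all 6 libraries. That list summed to 3626 to 4187 in shLTBP1 and 1752 to 1908 in shSCR, and MUC1 and CDX2 rose by 1.47 and 0.96 on the log2 scale. Of 6 fibroblast markers 2 reached that mean, with a summed level of 706 to 930 in shLTBP1 and 1095 to 1337 in shSCR; LUM was at 36.6 to 52.0 in shLTBP1 and listed at 0 in every shSCR library. The library of shSCR replicate 3 stood apart in globin RNA: HBA1 was at 803 there and at 3.36 to 11.99 in the other 5 libraries. The 7 blood markers, HBA1 among them, summed to 623 to 734 in shLTBP1 and 344 to 1322 in shSCR. Outside shSCR replicate 3 that sum was mostly CD68, at 605 to 713 in shLTBP1 and 340 to 382 in shSCR (log2 fold change 0.87), while PTPRC, which marks white blood cells, was under 1 in every library. The 4 endothelial markers summed to 23.9 to 30.5 in shLTBP1 and 35.6 to 51.2 in shSCR. Their part in the results on the ERBB family was not tested; the results that changed without shSCR replicate 3 are given where they arise.

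Promoter sequences are shown for 4 ligands whose RNA behaved differently although EREG, AREG and BTC lie close together on chromosome 4: EREG fell, AREG did not pass the test, BTC rose, and HBEGF on chromosome 5 had the largest fall among the well-expressed ligands. Each is the 250 bases before the transcript start in RefSeq (build GRCh38.p14), written 5′ to 3′ on the strand of the gene, at chr4:74364895-74365144 (plus strand) for EREG, chr4:74444886-74445135 (plus) for AREG, chr4:74794524-74794773 (minus) for BTC and chr5:140346604-140346853 (minus) for HBEGF. Capitals mark matches on either strand to any of 6 short motifs, named for AP-1, the cyclic AMP response element (CRE), the TATA box, the GC box, TEAD and SMAD and spelled out where they are counted.
EREG: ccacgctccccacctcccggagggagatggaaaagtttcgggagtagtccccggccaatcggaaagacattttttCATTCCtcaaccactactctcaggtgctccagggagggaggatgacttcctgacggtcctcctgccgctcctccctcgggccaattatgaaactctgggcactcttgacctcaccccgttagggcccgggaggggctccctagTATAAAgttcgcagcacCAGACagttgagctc
AREG: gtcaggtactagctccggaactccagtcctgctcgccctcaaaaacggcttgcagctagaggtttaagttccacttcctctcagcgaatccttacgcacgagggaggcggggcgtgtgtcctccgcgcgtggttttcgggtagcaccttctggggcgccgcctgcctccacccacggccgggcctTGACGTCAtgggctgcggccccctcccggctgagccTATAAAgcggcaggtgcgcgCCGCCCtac
BTC: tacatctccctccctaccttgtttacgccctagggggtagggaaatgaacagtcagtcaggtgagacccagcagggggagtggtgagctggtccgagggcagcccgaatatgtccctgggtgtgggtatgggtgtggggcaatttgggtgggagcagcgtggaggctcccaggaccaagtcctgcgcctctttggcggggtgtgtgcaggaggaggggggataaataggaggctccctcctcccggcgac
HBEGF: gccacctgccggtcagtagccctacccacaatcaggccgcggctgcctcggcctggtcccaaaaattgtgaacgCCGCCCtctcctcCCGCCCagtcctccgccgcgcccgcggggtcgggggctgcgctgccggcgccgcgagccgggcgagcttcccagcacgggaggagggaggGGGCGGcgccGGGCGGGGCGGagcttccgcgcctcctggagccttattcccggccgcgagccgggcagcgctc
The EREG and AREG windows each hold the TATA box letters TATAAA, at 32 to 27 bases before the start in EREG and at 29 to 24 in AREG. Among all 35116 RefSeq windows of the same length, 10.7% hold TATAAA on either strand. AREG also holds the CRE letters TGACGTCA at 65 to 58 bases before the start, which 1.65% of windows hold, and 1 GC box. EREG has 1 match to the TEAD letters GGAATG, present in 11.9% of windows. It also has 1 match to the SMAD letters CAGAC, present in 38.0%. HBEGF has 5 matches to the GC box letters GGGCGG, of which the last 2 share a base; 42.6% of windows hold at least 1. The BTC window has none of the 6 letter strings, which says only that these letters are absent from these bases. In GENCODE 29 the BTC gene, on the minus strand, reaches 74794686, so much of this window lies inside the annotated gene. For the AP-1 letters TGANTCA, which 6.57% of windows hold, none of the 4 printed windows has a match. Windows were found for 9 of the 10 genes. The matches are a description of letters and are not evidence of binding.

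Expression of the family is given first gene by gene. Fold changes throughout are differences of log2(value + 1), shLTBP1 minus shSCR, tested with limma and adjusted by the Benjamini-Hochberg method over all 12789 genes with a mean of at least 10. Of the 10 members 8 passed that minimum, and of these 2 rose (ERBB2 and BTC), 4 fell (EGFR, TGFA, HBEGF and EREG) and 2 did not pass an adjusted p of 0.05 (ERBB3 and AREG). Over all tested genes 53.1% passed in either direction, 26.3% higher and 26.8% lower, so a called member was no rarity in these libraries. Of the tested members 4 were both called and at least 1.5-fold changed: BTC upwards (9.43% of all tested genes) and TGFA, HBEGF and EREG downwards (10.6%). The shLTBP1 values lay wholly above the shSCR values for 3 tested members (30.2% of all tested genes) and wholly below them for 5 (30.6%), which makes 8 of 8, beside 60.8% of all tested genes. The median log2 fold change was 0.09 over the 3 tested receptors and -0.88 over the 5 tested ligands, against 0.00 (0.00376) over all tested genes. The ligand median is the value of TGFA, on chromosome 2, where tested genes had a median of -0.56. With its chromosomal neighbours subtracted, as described below, TGFA was at -0.28 and still the middle value of the 5 ligands. These are bulk libraries, in which fewer cells of a kind and less RNA per cell cannot be told apart.

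**Figure D1:**
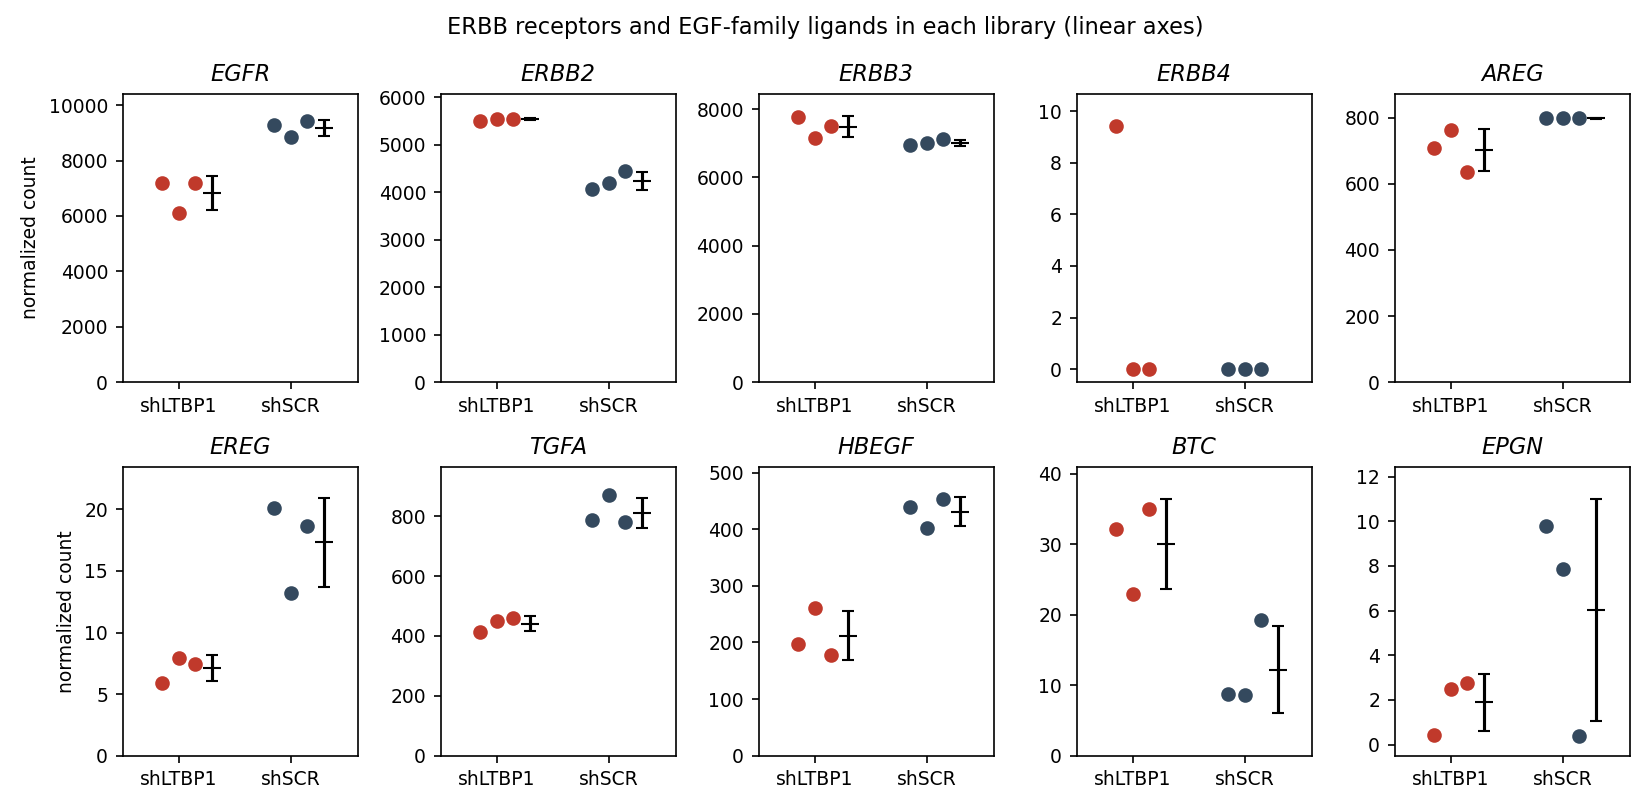
Normalized count of each of the 10 members in each library, on a linear axis per gene. Dots are libraries (shLTBP1 red, shSCR dark blue), and black marks are mean and SD (n = 3; not drawn for ERBB4, which is above 0 in 1 library). All shLTBP1 dots lie on 1 side of all shSCR dots for every gene but ERBB4 and EPGN.

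EGFR, the receptor of the EGF-like growth factors, was lower in shLTBP1 cells. It had 7200, 6123 and 7184 normalized counts in the shLTBP1 libraries, against 9275, 8866 and 9427 in the shSCR libraries. The lowest value was that of shLTBP1 replicate 2, and the groups did not overlap. The means were 6835 ± 617 in shLTBP1 and 9189 ± 290.3 in shSCR (SD, n = 3 each), a log2 fold change of -0.43, standard error 0.06 (limma adjusted p = 0.000372). EGFR lies on chromosome 7 from 55019021 to 55211628 on the plus strand (GENCODE 29 on GRCh38), where it overlaps the antisense gene EGFR-AS1, so that reads of that gene may be counted with it. It passed under all 17 alternative analyses, with log2 fold changes from -0.47 to -0.35.

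ERBB2, the receptor without a ligand of its own, was higher. Its counts were 5510, 5550 and 5541 in shLTBP1, against 4075, 4197 and 4454 in shSCR. The shLTBP1 libraries were close to one another and all lay above the shSCR libraries. Means of 5534 ± 21.1 in shLTBP1 and 4242 ± 193 in shSCR (SD, n = 3 each) gave a log2 fold change of 0.38, standard error 0.05 (limma adjusted p = 8.85e-05). It passed under all 17 alternatives (0.28 to 0.42). ERBB2 lies on the plus strand of chromosome 17 from 39687914 to 39730426, where its ends overlap PGAP3 and MIEN1 on the opposite strand. A directional library kit was used, per the labels' protocols, but no source used here gives the strand setting of the counting, so ERBB2 is uncertain as far as reads in the overlaps were shared.

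ERBB3, a neuregulin receptor, was slightly higher without passing the test. Its counts were 7768, 7165 and 7514 in shLTBP1, against 6937, 6993 and 7114 in shSCR. The groups did not overlap, but shLTBP1 replicate 2 lay close to shSCR replicate 3. This is a log2 fold change of 0.09, standard error 0.04 (limma adjusted p = 0.108). With upper quartile scaling it was 0.12 (limma adjusted p = 0.0405), with quantile normalization 0.12 (limma adjusted p = 0.0404), and without shLTBP1 replicate 2 it was also 0.12 (limma adjusted p = 0.0268); over 17 alternatives the adjusted p ran from 0.0268 to 0.311. ERBB3 lies on chromosome 12, and its span also overlaps AC034102.2, an annotated gene on the same strand.

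ERBB4, the other neuregulin receptor, was listed at 0 in all libraries except shLTBP1 replicate 1, where it was at 9.42. It was under the minimum for testing.

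Set per length of exon, the ratio of ERBB2 to EGFR was higher in shLTBP1 cells than in shSCR cells. Values are divided here by the summed exon length of each gene in GENCODE 29, which need not be the length of the transcripts these cells use. Other lengths could change the order of the receptors, and in which group EGFR and ERBB2 lie closer together. ERBB3 was highest, at 828 ± 33.5 normalized counts per kb in shLTBP1 and 776 ± 10.0 per kb in shSCR (SD, n = 3 each). By these lengths EGFR at 546 ± 49.3 and ERBB2 at 536 ± 2.04 per kb did not differ beyond their spread in shLTBP1 cells. In shSCR cells they did, with EGFR at 734 ± 23.2 per kb and ERBB2 at 411 ± 18.7 per kb. Within a library, the ratio of ERBB2 to EGFR per kb was 0.929, 1.10 and 0.936 in shLTBP1, against 0.533, 0.574 and 0.573 in shSCR. This ratio is free of scaling between libraries, and its groups did not overlap. The lengths set the level of the ratio but not its fold difference between the groups. The summed level of the receptors was nearly equal, 1910 ± 80.0 per kb in shLTBP1 and 1921 ± 44.8 per kb in shSCR, of which EGFR made up 28.5% in shLTBP1 and 38.2% in shSCR and ERBB2 28.1% in shLTBP1 and 21.4% in shSCR.

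Of the ligands, HBEGF (heparin-binding EGF-like growth factor) and TGFA (transforming growth factor alpha) showed the clearest falls before chromosomal neighbours were taken into account. HBEGF had 197, 260 and 178 counts in shLTBP1, against 439, 402 and 453 in shSCR. The means were 212 ± 43.2 in shLTBP1 and 431 ± 26.4 in shSCR (SD, n = 3 each), a log2 fold change of -1.04, standard error 0.14 (limma adjusted p = 0.000156). All 3 shLTBP1 values were lower than every shSCR value, and the fall passed under all 17 alternatives (-1.20 to -0.92). HBEGF lies on the minus strand of chromosome 5 from 140332843 to 140346631.

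TGFA had 414, 450 and 460 counts in shLTBP1, against 786, 870 and 779 in shSCR. It stood at 441 ± 24.4 in shLTBP1 and 812 ± 50.6 in shSCR (SD, n = 3 each), with a log2 fold change of -0.88, standard error 0.08 (limma adjusted p = 1.09e-05). The groups were far apart, but TGFA lies on chromosome 2 (70447280 to 70554193, minus strand), where 88.8% of 852 tested genes were lower in shLTBP1 and the median log2 fold change was -0.56. With the median of its 25 tested neighbours on each side subtracted, TGFA was at -0.28 (limma adjusted p = 0.0181, the highest of 17 alternatives, whose lowest was 8.41e-06).

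AREG (amphiregulin) was at 708, 763 and 636 counts in shLTBP1, against 797, 800 and 798 in shSCR. It was the ligand with the highest level per kb of exon, though TGFA had the higher mean count in shSCR. The shSCR libraries were nearly identical and all 3 shLTBP1 libraries lay below them, with a log2 fold change of -0.19, standard error 0.08 (limma adjusted p = 0.0654). Without shLTBP1 replicate 2, the library nearest to the controls, it was -0.25 (limma adjusted p = 0.019); over 17 alternatives the adjusted p ran from 0.019 to 0.399, and only that alternative passed.

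The low-expressed ligands went in different directions. EREG (epiregulin) had 5.94, 7.97 and 7.42 counts in shLTBP1, against 20.1, 13.2 and 18.7 in shSCR, with no overlap. This is a log2 fold change of -1.16, standard error 0.38 (limma adjusted p = 0.0277). The call was lost without shLTBP1 replicate 1, shSCR replicate 1 or shSCR replicate 3 (limma adjusted p = 0.0755, 0.0905 and 0.0809; range over 16 alternatives 0.00321 to 0.0905). BTC (betacellulin) was higher, with 32.2, 22.9 and 35.01 counts in shLTBP1, against 8.73, 8.60 and 19.3 in shSCR. Its log2 fold change of 1.304 had a standard error of 0.38 (limma adjusted p = 0.0164), and the call was lost without shLTBP1 replicate 1, shLTBP1 replicate 3 or shSCR replicate 2 (limma adjusted p = 0.0563, 0.0578 and 0.05; range over 16 alternatives 0.00518 to 0.0578). Both genes are low, and how many reads stand behind their values is not known. EPGN (epigen) was under the minimum for testing, at 0.409, 2.51 and 2.74 in shLTBP1, against 9.78, 7.87 and 0.388 in shSCR, and its groups overlapped through shSCR replicate 3.

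**Figure D2:**
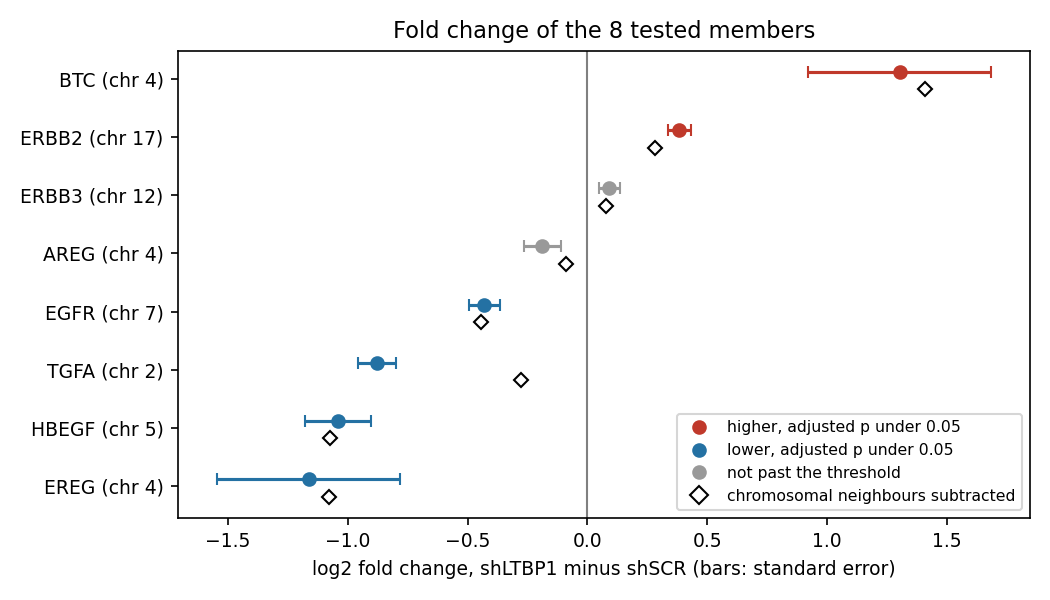
Log2 fold change of the 8 tested members, shLTBP1 minus shSCR, with standard errors (filled dots, red for higher, blue for lower and grey for not past an adjusted p of 0.05) and after the median of the chromosomal neighbours is subtracted (open diamonds). TGFA stands at -0.88 as measured and at -0.28 after the subtraction, the largest gap between dot and diamond among the 8.

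Per kb of exon, AREG made up most of the summed level of the 6 ligands, 71.2% ± 1.44 in shLTBP1 and 60.4% ± 0.05 in shSCR (SD, n = 3 each). TGFA held 14.9% ± 1.596 in shLTBP1 and 20.4% ± 1.23 in shSCR, and HBEGF 11.7% ± 1.40 in shLTBP1 and 17.8% ± 1.12 in shSCR. BTC, EPGN and EREG together remained a minor part, BTC reaching 1.81% ± 0.51 in shLTBP1 and 0.54% ± 0.27 in shSCR. The sum was 591, 651 and 553 counts per kb in the shLTBP1 libraries, against 799.6, 803.5 and 802 in the shSCR libraries. Thus AREG had a larger share of a smaller sum. These levels rest on annotated exon lengths, as for the receptors, which need not be those of the transcripts used. In order of level, AREG stood clear of TGFA and HBEGF in both groups, and TGFA (88.9 ± 4.91 per kb in shLTBP1, 164 ± 10.2 in shSCR) stood above HBEGF (70.2 ± 14.3 in shLTBP1, 143 ± 8.75 in shSCR) in every library, by little more than the larger SD in shLTBP1 and by more than that in shSCR.

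**Figure D3:**
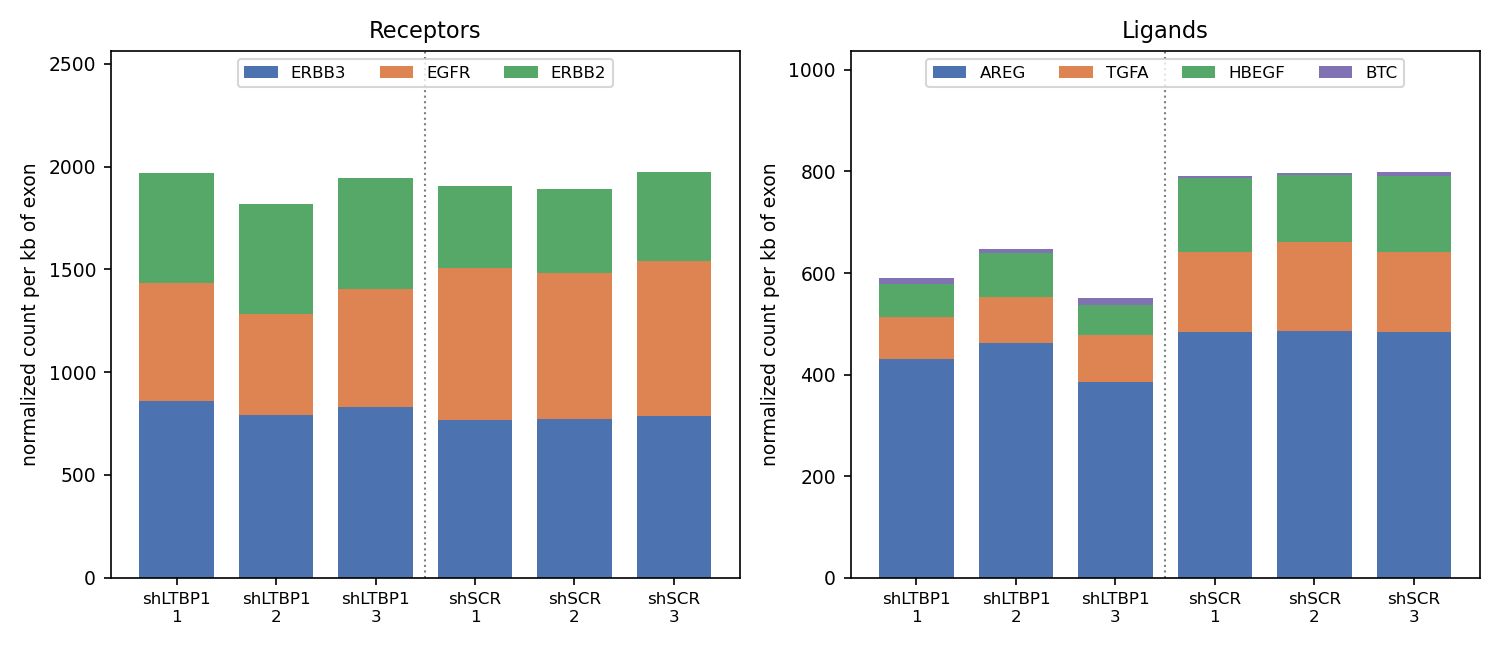
Stacked levels of the receptors (left) and ligands (right) in each library, in normalized counts per kb of exon, shLTBP1 libraries left of the dotted line. ERBB4, EREG and EPGN are too low to draw. The receptor stacks have similar heights (1819 to 1972), with less EGFR and more ERBB2 in shLTBP1, and the ligand stacks are lower in shLTBP1.

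The genes next to the called members on their chromosomes were compared, since chromosome 2 as a whole was lower. Around ERBB2, 36 tested genes lay within 1000000 bases, of which 11 rose, 6 fell and 19 did not pass (median log2 fold change 0.06). Of 5 tested genes within 100000 bases, a distance chosen after the values were seen, 4 rose and none fell: PGAP3 (0.54), GRB7 (0.49), MIEN1 (0.46) and STARD3 (0.29), each with a limma adjusted p of at most 0.0127. PPP1R1B, a low-expressed gene, was at 0.63 and did not pass. GRB7, an adaptor that binds phosphorylated ERBB2, was at 1413 in shLTBP1 and 1004 in shSCR on average. With its 50 nearest tested neighbours taken into account ERBB2 was at 0.28 (limma adjusted p = 0.00102; 17 alternatives gave 6.19e-05 to 0.00189). The median of those 50 genes was 0.10, so this step would leave in a shift limited to the closest genes. The part of the region in the ERBB2 value was not tested further.

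On chromosome 4, EPGN, EREG, AREG and BTC follow one another in that order. EREG (74365143 to 74388751, plus strand) fell, AREG (74445134 to 74455009, plus strand) did not pass, and BTC (74744759 to 74794686, minus strand) rose. PARM1, the nearest tested gene beyond BTC, was at 425 in shLTBP1 and 122 in shSCR (log2 fold change 1.80). Around BTC, 11 tested genes lay within 1000000 bases, of which PARM1 alone rose and 5 fell, EREG among them. Around EREG, 2 of 8 rose, which were BTC and PARM1, and 3 fell. Before EREG, MTHFD2L fell by 0.45 on the log2 scale, and CXCL8, a chemokine, by 1.07. The median of the 50 nearest tested genes was -0.09 for EREG and -0.11 for BTC. Around EGFR, 12 tested genes lay within 1000000 bases, of which 1 rose and 3 fell; VOPP1 was at -0.97, and the median of the 50 nearest was 0.01. Around HBEGF, 8 of 49 tested genes rose and 15 fell, with the lowest value, -2.79, for PCDHB6, one of the clustered protocadherins, whose similar sequences make their counts uncertain, and the median of the 50 nearest was 0.04. Around TGFA, 16 of 21 tested genes fell and 3 rose (MXD1, ASPRV1 and ATP6V1B1).

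**Figure D4:**
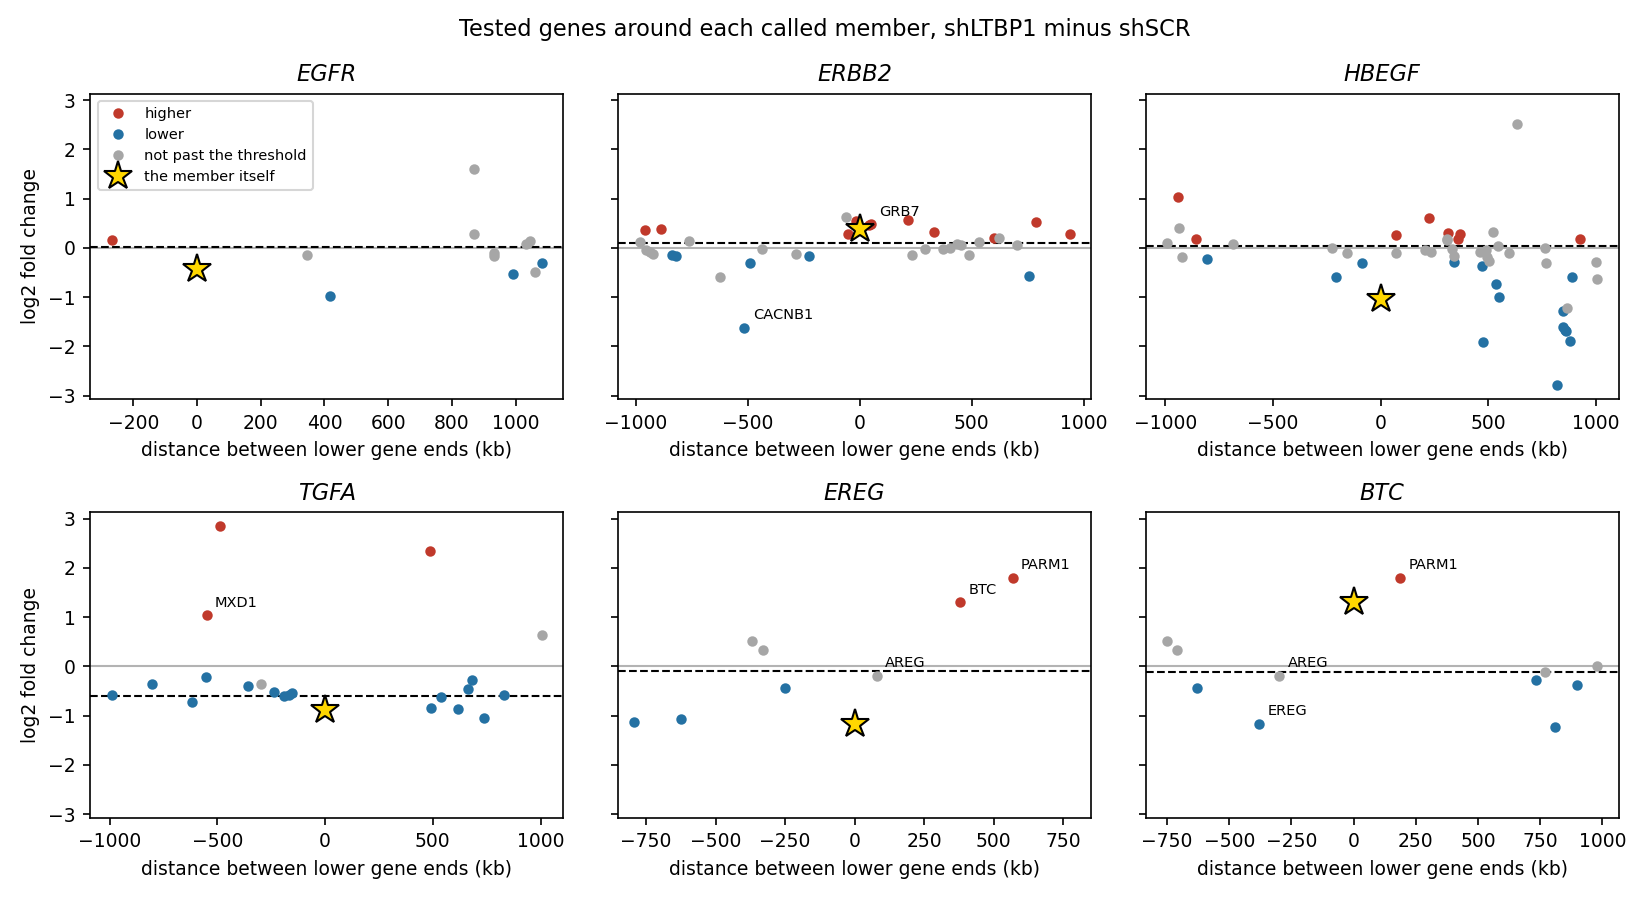
Log2 fold change of tested genes around each of the 6 called members against the distance in kb between the lower coordinates of the genes. Stars are the members, dots are neighbours (red higher, blue lower, grey not past an adjusted p of 0.05), and dashed lines are the medians of the 50 nearest tested genes. For TGFA the dashed line lies at -0.60, for the other members between -0.11 and 0.10.

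The rest of the ERBB pathway moved in both directions. Of 84 genes in 7 lists written from general knowledge, 74 were tested, of which 15 rose, 28 fell and 31 did not pass, so that 58.1% were called, against 53.1% of all tested genes. Their median log2 fold change was -0.09. All 5 tested list genes on chromosome 2 fell (ADAM17, SOS1, NCK2, SOCS5 and EPHA4).

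EGF, the founding ligand of the family, fell. It had 79.4, 98.2 and 82.5 counts in shLTBP1, against 142, 160 and 146 in shSCR, without overlap (log2 fold change -0.78 ± 0.14 SE, limma adjusted p = 0.00107). NRG1, NRG2 and NRG3, neuregulins that bind ERBB3 or ERBB4, were listed at 0 in every library. NRG4 was at 15.6, 5.58 and 5.69 in shLTBP1, against 12.7, 11.1 and 16.2 in shSCR, and did not pass (limma adjusted p = 0.275).

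Of the genes that release ligands, 6 of 10 were tested, and 3 of these fell and none rose. With neighbours subtracted 3 fell and 1 rose, but the 3 were not the same genes. ADAM17 left them, and FRMD8 of this list joined them at -0.17 (limma adjusted p = 0.0478). The sheddase ADAM9 was at 6873, 6164 and 6932 in shLTBP1, against 10460, 9951 and 10110 in shSCR (log2 fold change -0.61 ± 0.05 SE, limma adjusted p = 9.22e-06). ADAM17, the main sheddase of AREG, TGFA and HBEGF, fell to a mean of 4255 in shLTBP1, against 6362 in shSCR (-0.58), but it lies on chromosome 2 and was at -0.07 with the median of its neighbours subtracted, where it did not pass. RHBDF2, which helps ADAM17 mature, fell by 0.34 on the log2 scale. ADAM10, the main sheddase of EGF and BTC, was at 16550 in shLTBP1 and 16500 in shSCR and did not pass. With neighbours subtracted ADAM10 was at 0.16 and passed (limma adjusted p = 0.0324).

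Of 15 tested adaptors, 2 rose and 6 fell. SHC3, a SHC family adaptor best known from neurons, was at 479, 568 and 394 in shLTBP1, against 193, 179 and 166 in shSCR (log2 fold change 1.40, limma adjusted p = 1.76e-05; 0.88 with neighbours subtracted). GRB7 rose with ERBB2, as given above. SOS1, the exchange factor that loads RAS, had a log2 fold change of -0.98 (-0.39 with neighbours subtracted), and NCK2 of -0.42, which turned to 0.26 with neighbours subtracted; both lie on chromosome 2. GRB2 and SHC1, adaptors that bind the receptors, fell by 0.28 and 0.35 on the log2 scale.

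Among 16 tested genes of receptor restraint and turnover, which do not all act on the receptors in the same direction, 2 rose and 6 fell. The related ubiquitin ligases CBL and CBLB, which mark activated EGFR for degradation, moved in opposite directions. CBL was at 2177, 1875 and 2306 in shLTBP1, against 4682, 4382 and 4538 in shSCR (log2 fold change -1.10 ± 0.07 SE, limma adjusted p = 1.58e-06). CBLB was at 1032, 956 and 1108 in shLTBP1, against 477, 606 and 562 in shSCR (0.92 ± 0.10 SE, limma adjusted p = 3.58e-05). Neither gene's groups overlapped, and with neighbours subtracted they were at -1.085 and 1.02. CBLC, the third family member, was at 0.02 and did not pass. LRIG3, of a family of membrane proteins that includes ERBB inhibitors, rose by 0.34 and SOCS5, an adaptor of EGFR turnover on chromosome 2, fell by 0.77 (-0.21 with neighbours subtracted). ERRFI1, a feedback inhibitor that binds the EGFR kinase, was high in both groups, at 26250 in shLTBP1 and 28160 in shSCR, and did not pass (limma adjusted p = 0.0755).

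Of 13 tested genes from RAS to ERK, which do not all act in the same direction, 4 rose and 6 fell. HRAS (0.68) and ARAF (0.29) had the largest rises and KSR1 (-0.58) and RASA1 (-0.53) the largest falls. Of 12 tested PI3K and AKT genes, 5 rose and 2 fell. That balance was not stable: 2 rose and 2 fell without shSCR replicate 1, and 2 rose and 5 fell with neighbours subtracted. The regulatory subunit PIK3R3 rose by 0.73 and the catalytic subunit PIK3CB by 0.49, while the catalytic subunit PIK3CD fell by 0.68.

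Genes used as a readout of ERK activity gave no common direction. Of 10 such genes, all tested, 2 rose (DUSP4 at 0.55 and EPHA2 at 0.25), 4 fell (EPHA4, PHLDA1, ETV5 and ETV4) and 4 missed the threshold. The list median was -0.09 on the log2 scale. EPHA4, on chromosome 2, was at -1.004 (-0.55 with neighbours subtracted) and PHLDA1 at -0.58. DUSP6, a phosphatase of ERK, was at 158, 162 and 217 in shLTBP1, against 244, 199 and 225 in shSCR, with overlapping groups. SPRY2 and SPRY4, feedback inhibitors of receptor signalling, were at 0.21 and 0.00 and did not pass (limma adjusted p = 0.0743 and 0.955).

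**Figure D5:**
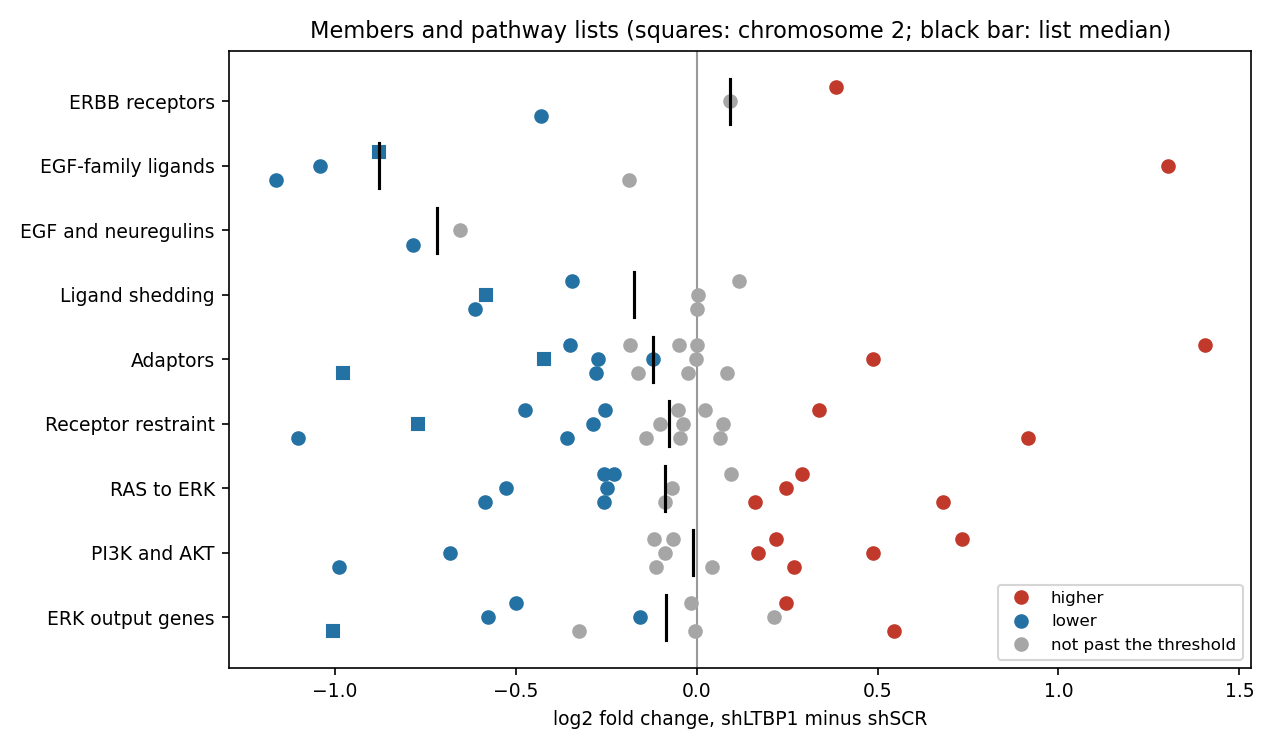
Log2 fold change, shLTBP1 minus shSCR, of each tested member and pathway gene by list (red higher, blue lower, grey not past an adjusted p of 0.05), with squares for genes on chromosome 2 and black bars for list medians. The tested ligands lie mostly below 0 (list median -0.88, the value of TGFA on chromosome 2). EGF and NRG4, the 2 tested genes of their list, have a median of -0.72. The medians of the other pathway lists lie between -0.17 and -0.01.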

How the data were processed

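RNA of MKN28 cells was sequenced from 3 shLTBP1 and 3 shSCR libraries, grouped by sample title. Per the submitters' processing notes, the authors used RSEM 1.3.1, STAR 2.7.3a, FastQC 0.10.1 and DESeq2, and the build hg38. No source used here gives the gene annotation, the strand setting or the filters. Each deposited value is a signal, a count per gene scaled between libraries by the authors with DESeq2, as the table's title states. Between 35% and 36.6% of low values per library were whole multiples (within 0.1) of the commonest value near 1 (0.92 to 1.06), so counts were not recovered, no count test was run, and the depth is unknown.

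Tests on log2(value + 1) were run in limma 3.58.1 (R 4.3.3), with genes of mean 10 or more, group as the only term, trended variances (4 residual and 5.6 prior degrees of freedom) and two-sided Benjamini-Hochberg adjusted p-values over 12789 genes at 0.05. The pseudocount understates the change of low genes. The code was tested on simulated data. Positions and exon lengths came from GENCODE 29 (GRCh38, the assembly of hg38), which held 19872 of 19960 identifiers.

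The members, gene lists and alternatives were chosen with earlier results of these data known. Named genes are the members, LTBP1, per pathway list up to 2 with the largest called rise and fall, called members' neighbours within 1000000 bases, and the 3 genes most like the most changed member. GRB2, SHC1, RHBDF2, ADAM10, FRMD8, CBLC, ERRFI1, DUSP6, SPRY2, SPRY4, ETV4, ETV5 and NRG1 to NRG4 were added after their values were seen. Some genes that the rule names are not reported here. Alternatives were other pseudocounts, filters, scalings and variance models, a replicate block, each library left out, and neighbours subtracted. That last step subtracts, per library, the median deviation of 25 tested neighbours on each side.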

Additional observations from a re-analysis of the deposited data

How the results depend on the processing

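EGFR, ERBB2, TGFA and HBEGF kept their direction and passed under all 17 alternatives run for them, as did LTBP1 (log2 fold change -4.17 to -3.48). The count of called members, 6, ran from 4 to 8 both over all alternatives and over those that leave out a library. Genes called over the whole table, 6788, ran from 5828 to 6806, with 48.3% to 54.2% of calls higher. The block on replicate number left 5 members called (EREG at an adjusted p of 0.053) and 6755 genes; same-numbered libraries did not deviate together (r = -0.0093, 0.058 and -0.00074), so the numbers were not taken as pairs. A minimum mean of 50 leaves EREG and BTC untested. With neighbours subtracted, 11 tested pathway genes changed sign, of which 6 were called neither before nor after and 5 were called in at least 1 of the analyses: NCK2 (0.26), SPRY4 (0.18), FRMD8 (-0.17), PIK3CA (-0.22) and PIK3R2 (-0.011), which follows from the medians subtracted. Of 1308 fold changes recomputed for 77 genes outside the family, 63 lost and 15 gained a call with the sign kept. The 5 sign changes just named are counted apart from these. The cause was not tested. Low values limit EREG, BTC, EPGN and ERBB4. With no filter, ERBB4 and EPGN did not pass (limma adjusted p = 0.326 and 0.376).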

Other observations

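BTC had the largest called log2 fold change of the family as measured (1.304, against -1.16 for EREG, each with a standard error of 0.38), although EREG was the larger in 3 of 16 alternatives. By the rule for likeness, the 3 well-expressed genes whose log2 values followed BTC most closely over the 6 libraries were IFT81, ASCC2 and SGO1 (Pearson's r = 0.994, 0.992 and 0.992, the highest among 10790 candidates of mean 100 or more). The points share their 2 groups, so such values describe the libraries and show no link. Of these genes ASCC2 and SGO1 rose, by 0.24 and 0.21 on the log2 scale, and IFT81 was at 0.16 and did not pass (limma adjusted p = 0.0938).

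Within the shLTBP1 group, replicate 2 had the lowest EGFR (6123) and BTC (22.9) and the highest HBEGF (260) and AREG (763) of the 3 libraries. Per kb of exon its ratio of ERBB2 to EGFR was 1.10, against 0.929 and 0.936 in the other shLTBP1 libraries, and all 3 lay above the shSCR range of 0.533 to 0.574.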
